A study of Homo sapiens with 12 samples.

Results

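The genes described here are 10 transcriptional targets of FLT3, MAPK and STAT5 signalling, of which most act back on the pathway that induces them: DUSP4, DUSP5, DUSP6, SPRY2, SPRY4, SPRED1, PIM1, PIM2, SOCS2 and CISH. They were chosen by name, with earlier results of these data known, and all 10 had a row among the 13881 genes of the deposited table. Their counts and medians are therefore set beside those of all genes as description, not as a test. RNA was sequenced from the acute myeloid leukaemia lines MOLM-14 and KG-1, both established from patients, which had been kept for 96 h in ASLAN003, an inhibitor of the pyrimidine synthesis enzyme DHODH, or in the solvent DMSO. The groups were MOLM-14 with ASLAN003, MOLM-14 with DMSO, KG-1 with ASLAN003 and KG-1 with DMSO, with 3 libraries each. No dose was stated, and both lines were grown in medium with serum. The labels call each treatment triplicated but do not say that the libraries came from separate cultures, so p-values measure only how far these libraries spread, and that spread may be technical.

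FLT3 is a receptor tyrosine kinase of haematopoietic progenitors that signals through the RAS, RAF, MEK and ERK cascade and, above all when it carries an internal tandem duplication, through STAT5. ERK activity induces the phosphatases of the DUSP family and the Sprouty and SPRED proteins, which damp the same cascade. STAT5 activity induces SOCS2 and CISH, which damp cytokine receptors, and the PIM kinases, which carry part of the survival signal. MOLM-14 is known to carry a FLT3 internal tandem duplication and KG-1 is not, although the labels state neither. The transcripts are known targets of these pathways. Whether their levels follow pathway output in these cells was not tested, and phosphorylated ERK and STAT5 were not measured.

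Values are FPKM (fragments per kilobase of transcript, scaled to library size), and depth was estimated from the steps of the low values at 17520000 to 18990000 fragments per library. The first principal component, with 61.8% of the variance, split the libraries by line. On the next one (16.3%) MOLM-14 ASLAN003 replicate 1 lay at -36.2, against -14.6 and -9.37 for the other libraries of its group. The median SD of a gene between replicates was 0.271 on the log2 scale in MOLM-14 ASLAN003, 0.177 in MOLM-14 DMSO, 0.155 in KG-1 ASLAN003 and 0.129 in KG-1 DMSO. The 8 myeloid markers looked at had a summed level of 3436 to 4750 FPKM in MOLM-14 ASLAN003, against 1171 to 1253 FPKM in MOLM-14 DMSO, and of 1565 to 1627 FPKM in KG-1 ASLAN003, against 618 to 656 FPKM in KG-1 DMSO. LYZ made up most of these sums with ASLAN003, averaging 3411 FPKM in MOLM-14 ASLAN003, against 674 FPKM in MOLM-14 DMSO, and 846 FPKM in KG-1 ASLAN003, against 91.7 FPKM in KG-1 DMSO, whereas MPO averaged 4.83 FPKM in MOLM-14 ASLAN003, against 20.8 FPKM in MOLM-14 DMSO, and 37.9 FPKM in KG-1 ASLAN003, against 160.3 FPKM in KG-1 DMSO. Of the 8, 3 were called higher and 1 lower after ASLAN003 in MOLM-14, and 5 higher and 2 lower in KG-1. Over all tested genes, 9.69% were called higher and 3.33% lower in MOLM-14, and 19.4% and 14.3% in KG-1. CD14, among the 5 in KG-1, passed the filter on low values only through ASLAN003 libraries, so it had to differ. Of 5 T and NK cell markers 2 were in the table: CD3D did not exceed 0.22 FPKM, while NKG7 had 66.8 to 104 FPKM in MOLM-14 ASLAN003, against 40.6 to 46.6 FPKM in MOLM-14 DMSO, and 34.6 to 36.8 FPKM in KG-1 ASLAN003, against 17.6 to 23.6 FPKM in KG-1 DMSO. The 2 of 4 B cell markers in the table summed to at most 0.46 FPKM in MOLM-14 ASLAN003, 1.39 FPKM in MOLM-14 DMSO, 9.53 FPKM in KG-1 ASLAN003 and 2.49 FPKM in KG-1 DMSO. The 3 of 5 megakaryocyte markers summed to 1.58 to 7.98 FPKM in MOLM-14 ASLAN003, against 0.05 to 0.37 FPKM in MOLM-14 DMSO, and 24.2 to 39.8 FPKM in KG-1 ASLAN003, against 13.6 to 21.4 FPKM in KG-1 DMSO. Most of the KG-1 sums was GP1BB, which was not called after ASLAN003 in either line and in MOLM-14 was above 0 in 1 library only (7.42 FPKM, ASLAN003 replicate 2). In KG-1 ITGA2B was called lower (-0.83, adjusted p = 0.0458), and no marker of this list was called in MOLM-14. ITGA2B passed the filter on low values only with the KG-1 DMSO libraries, so it adds nothing as a fall. The 4 of 5 progenitor markers in the table summed to 84.0 to 94.5 FPKM in MOLM-14 ASLAN003, against 87.1 to 95.96 FPKM in MOLM-14 DMSO, and 19.3 to 23.1 FPKM in KG-1 ASLAN003, against 13.2 to 16.4 FPKM in KG-1 DMSO, with MEIS1 (0.57, adjusted p = 0.0258) and HOXA9 (0.44, adjusted p = 0.0357) called higher in KG-1. The part of these markers in the changes of the feedback genes was not tested, and erythroid markers were not analysed here. The progenitor marker CD34, for which KG-1 is known, was at most 0.17 FPKM in the libraries labelled KG-1, and FGFR1, part of a known fusion gene of KG-1, was at most 4.49 FPKM there, against at least 49.4 FPKM in MOLM-14. Both go against what is known of KG-1, so differences between the lines are between libraries as labelled. In bulk RNA, fewer cells of a type and less RNA per cell cannot be told apart.

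In DMSO, 8 of the 10 feedback genes were higher in MOLM-14 than in KG-1 and none was lower, at a Benjamini-Hochberg adjusted p under 0.05 in limma (called). Over all 13353 genes tested, 22.1% were called higher and 27.1% lower (49.2% in either direction). The median difference was 1.35 on the log2(FPKM + 1) scale over the 10 genes and -0.05 over all genes. DUSP6 and PIM2 were the members not called. DUSP4 passed the filter on low values only through MOLM-14, so it had to differ and adds nothing to the count. The median over the 10 genes includes it. After ASLAN003, 4 of 10 were called higher in MOLM-14, against 9.69% of all genes, and 4 of 10 in KG-1, against 19.4%. None was called lower in either line, against 3.33% of all genes in MOLM-14 and 14.3% in KG-1. In either direction, 13.0% of all genes were called in MOLM-14 and 33.7% in KG-1. After median centring and after quantile normalization, SPRY2 and PIM2 were called lower in KG-1, as was PIM2 with KG-1 fitted alone, and the MOLM-14 count was 1 under both scalings. At an unadjusted p under 0.05 in the same limma fit, 6 were higher and 0 lower in MOLM-14, 5 higher and 2 lower in KG-1, and 8 higher and 0 lower between the lines. Over all 13353 genes, 3741 passed that unadjusted threshold in MOLM-14, 5804 in KG-1 and 7391 between the lines, in either direction. DUSP4, DUSP6 and PIM1 were called in both lines, PIM2 in MOLM-14 and SPRY4 in KG-1. The MOLM-14 count depended on single libraries: it was 0 without MOLM-14 DMSO replicate 1 (4 at an unadjusted p under 0.05), 1 without MOLM-14 ASLAN003 replicate 1 or MOLM-14 DMSO replicate 3, 2 without MOLM-14 DMSO replicate 2, KG-1 ASLAN003 replicate 1 or any 1 KG-1 DMSO library, and 6 without MOLM-14 ASLAN003 replicate 3. The KG-1 count also depended on single libraries. It was 2 without KG-1 ASLAN003 replicate 1 and 3 without any other KG-1 library or any 1 MOLM-14 DMSO library. Without MOLM-14 ASLAN003 replicate 1, 2 or 3 it was 5, 4 and 3. Over all genes, leaving out any 1 library gave 1070 to 2319 calls in MOLM-14 and 3316 to 5252 in KG-1.

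**Figure D1:**
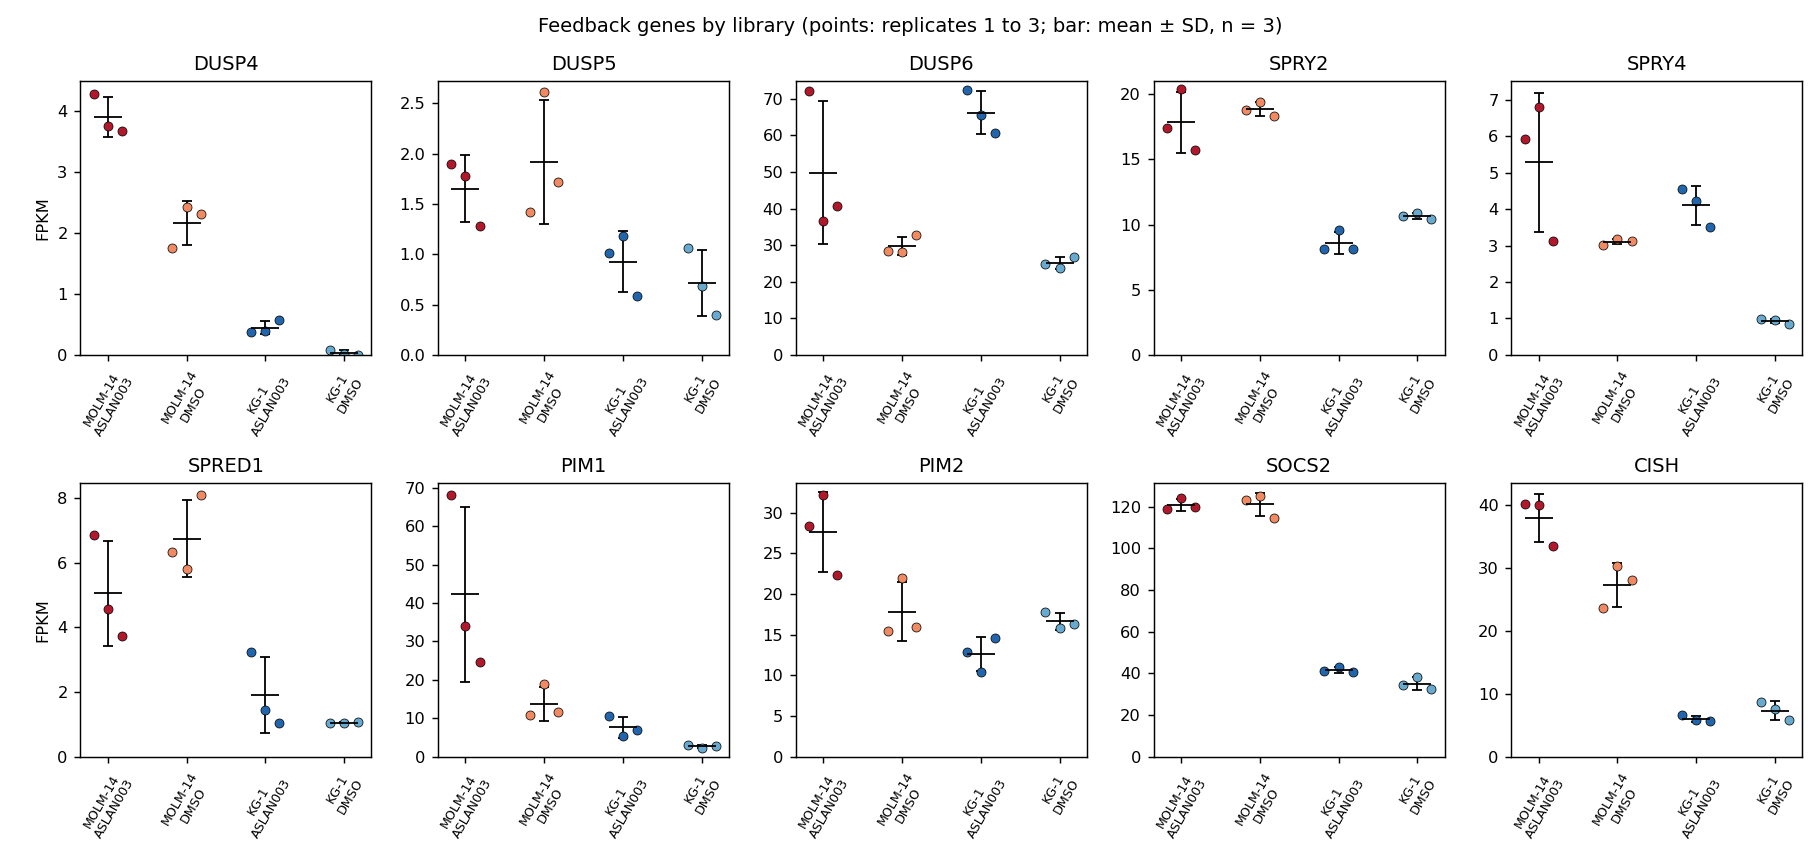
FPKM of the 10 feedback genes in each library (points) with the mean and SD of 3 libraries per group (bars), ASLAN003 left of DMSO within MOLM-14 and within KG-1. For DUSP6 every DMSO library lay below every ASLAN003 library, whereas SOCS2 and CISH were separated by cell line, with every MOLM-14 library above every KG-1 library.

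DUSP6 encodes the cytoplasmic phosphatase that removes the activating phosphates from ERK (ENSG00000139318.7, GRCh38 chromosome 12, 89347232 to 89353271, minus strand, positions from GENCODE). In KG-1 it had 72.4, 65.7 and 60.5 FPKM with ASLAN003, against 24.8, 23.6 and 26.8 FPKM with DMSO. The 3 treated libraries lay far above the 3 controls, and the means of 66.2 ± 5.94 and 25.1 ± 1.59 FPKM (SD, n = 3) differed 2.64-fold. The log2 difference was 1.36 ± 0.20 (SE, adjusted p = 0.000187), and it was called in all 21 alternative analyses, with values of 1.24 to 1.51. In MOLM-14 it had 72.1, 36.6 and 40.7 FPKM with ASLAN003, against 28.5, 28.2 and 32.7 FPKM with DMSO. Replicate 1 stood well above the other treated libraries, and all 3 lay above the controls. The difference of 0.66 ± 0.20 was called (adjusted p = 0.0441), was 0.37 without MOLM-14 ASLAN003 replicate 1 (adjusted p = 0.0593) and was called in 6 of 21 alternatives. The order of means was KG-1 ASLAN003, MOLM-14 ASLAN003, MOLM-14 DMSO and KG-1 DMSO, and the library ranges of the 2 ASLAN003 groups overlapped.

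In DMSO, the MOLM-14 minus KG-1 difference of DUSP6 was 0.24 ± 0.20 on the log2 scale and did not pass (adjusted p = 0.339). Its change in MOLM-14 minus that in KG-1 was -0.70 ± 0.28, which did not pass either (adjusted p = 0.136). Without MOLM-14 ASLAN003 replicate 1 that difference was -0.997 and passed (adjusted p = 0.00146). By transcript level it was the most abundant of the ERK pathway members: 87.6% of the genes in the table lay below it in KG-1 ASLAN003 and 70.0% in KG-1 DMSO.

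DUSP4 encodes a nuclear phosphatase of ERK and other MAP kinases (ENSG00000120875.8, chromosome 8, 29333064 to 29350668, minus strand). It had 4.27, 3.75 and 3.66 FPKM in MOLM-14 with ASLAN003, against 1.75, 2.42 and 2.31 FPKM with DMSO. The groups did not overlap, and the means of 3.89 ± 0.329 and 2.16 ± 0.359 FPKM (SD, n = 3) differed by 0.64 ± 0.18 on the log2(FPKM + 1) scale (adjusted p = 0.0319, called in 11 of 20 alternatives). Without each MOLM-14 DMSO library in turn, or without MOLM-14 ASLAN003 replicate 1, it was not called (adjusted p up to 0.115). The KG-1 libraries had 0.38, 0.39 and 0.57 FPKM with ASLAN003, against 0.08, 0.02 and 0.00 FPKM with DMSO. These levels rest on very few fragments, and no fold change is given. The KG-1 difference of 0.48 ± 0.18 passed narrowly (adjusted p = 0.0495) and was called in 7 of 20 alternatives. It was not called with any 1 KG-1 library left out (adjusted p = 0.0874 to 0.130), nor after median centring or quantile normalization. At a pseudocount of 0.1 in place of 1, the KG-1 difference was 2.06, on the same few fragments. All 6 MOLM-14 libraries lay above all 6 KG-1 libraries.

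DUSP5, a nuclear phosphatase specific to ERK (ENSG00000138166.5, chromosome 10, 110497838 to 110511544, plus strand), had the lowest mean FPKM of the members in both MOLM-14 groups. It had 1.90, 1.78 and 1.28 FPKM in MOLM-14 ASLAN003, against 1.42, 2.61 and 1.72 FPKM in MOLM-14 DMSO. KG-1 had 1.01, 1.18 and 0.59 FPKM with ASLAN003, against 1.06, 0.68 and 0.40 FPKM with DMSO. Treated and control libraries overlapped in both lines, with differences of -0.12 ± 0.23 in MOLM-14 (adjusted p = 0.780) and 0.17 ± 0.23 in KG-1 (adjusted p = 0.601). The line difference in DMSO was 0.76 ± 0.23 (adjusted p = 0.0143), and it was not called without KG-1 DMSO replicate 3 (0.63, adjusted p = 0.0644) or MOLM-14 DMSO replicate 2 (0.60, adjusted p = 0.0695).

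SPRY4, a Sprouty inhibitor of RAS and RAF activation (ENSG00000187678.8, chromosome 5, 142310427 to 142326455, minus strand), rose in KG-1. It had 4.56, 4.23 and 3.52 FPKM with ASLAN003, against 0.98, 0.95 and 0.86 FPKM with DMSO. The treated libraries were all several times the controls, with means of 4.10 ± 0.531 and 0.93 ± 0.0624 FPKM (SD, n = 3), a 4.41-fold difference. On the log2(FPKM + 1) scale the difference was 1.40 ± 0.22 (adjusted p = 0.000378), called in all 20 alternatives. In MOLM-14 it had 5.92, 6.80 and 3.13 FPKM with ASLAN003, against 3.03, 3.17 and 3.13 FPKM with DMSO. Replicate 3 of the treated libraries lay among the controls and the other 2 above them. The difference of 0.56 ± 0.22 did not pass (adjusted p = 0.118), and without MOLM-14 ASLAN003 replicate 3 it was 0.84 and passed (adjusted p = 0.00849). In DMSO, SPRY4 was higher in MOLM-14 than in KG-1 by 1.09 ± 0.22 (adjusted p = 0.00131), whereas the ASLAN003 libraries of the 2 lines overlapped. The change in MOLM-14 minus that in KG-1 was -0.84 and did not pass (adjusted p = 0.113).

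SPRY2, the paralogue of SPRY4 (ENSG00000136158.10, chromosome 13, 80335976 to 80340951, minus strand), lay lower with ASLAN003 in KG-1. Its KG-1 values were 8.14, 9.59 and 8.13 FPKM with ASLAN003, against 10.6, 10.9 and 10.4 FPKM with DMSO. All 3 treated libraries lay below the controls, and the difference of -0.28 ± 0.13 did not pass (adjusted p = 0.109), although it passed after median centring (-0.40, adjusted p = 0.0246) and quantile normalization (-0.41, adjusted p = 0.0233). In MOLM-14 it had 17.4, 20.4 and 15.7 FPKM with ASLAN003, against 18.8, 19.4 and 18.3 FPKM with DMSO, which overlapped. In DMSO it was 1.77-fold higher in MOLM-14 than in KG-1 (log2 difference 0.77 ± 0.13, adjusted p = 0.000259).

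SPRED1 encodes a membrane protein that brings neurofibromin to RAS (ENSG00000166068.12, chromosome 15, 38252326 to 38357249, plus strand). It had 6.86, 4.55 and 3.73 FPKM in MOLM-14 with ASLAN003, against 6.33, 5.80 and 8.10 FPKM with DMSO. KG-1 libraries had 3.25, 1.45 and 1.03 FPKM with ASLAN003, against 1.04, 1.05 and 1.07 FPKM with DMSO. Treated and control libraries overlapped in both lines, and neither difference passed (-0.38 ± 0.27, adjusted p = 0.402, in MOLM-14 and 0.43 ± 0.27, adjusted p = 0.248, in KG-1). The line difference was among the largest of the members, 6.40-fold in mean FPKM in DMSO (log2 difference 1.90 ± 0.27, adjusted p = 8.29e-05).

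**Figure D2:**
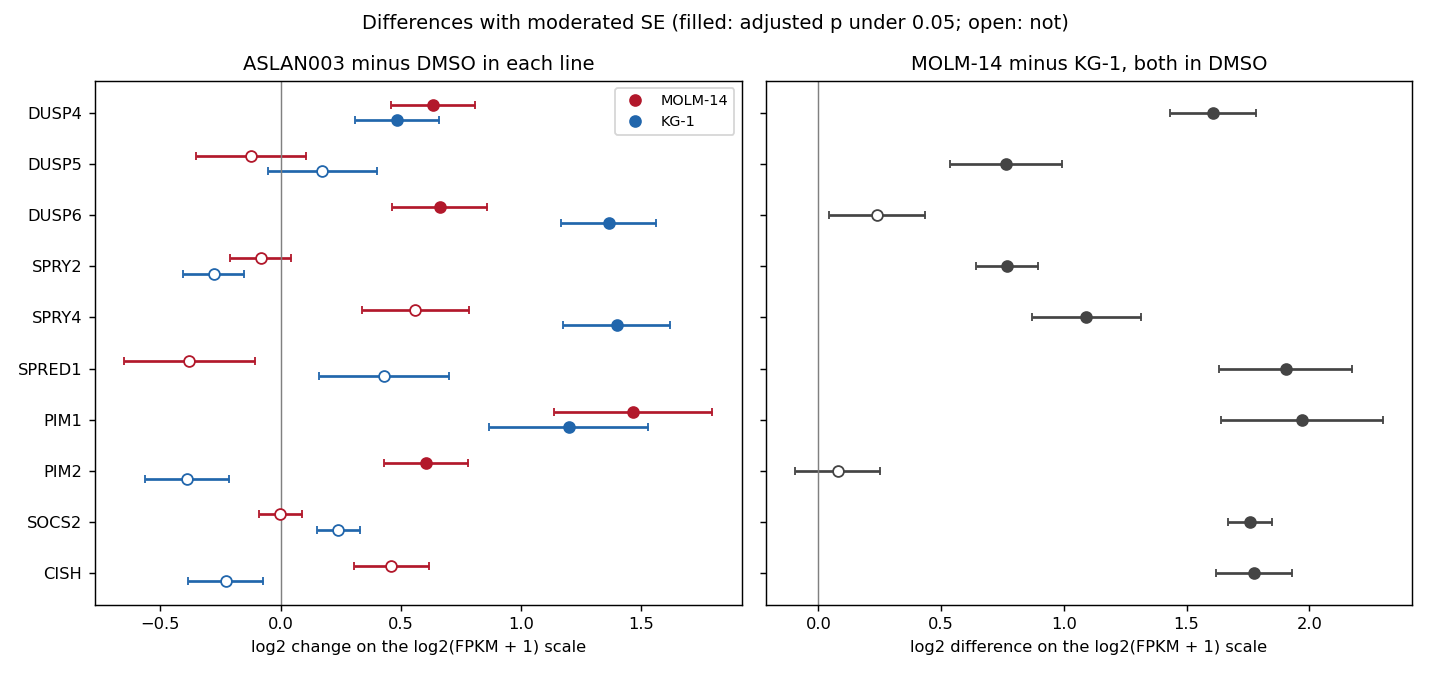
Log2 differences of the 10 feedback genes on the log2(FPKM + 1) scale with the SE of the limma fit. The left panel shows ASLAN003 minus DMSO in MOLM-14 (red) and KG-1 (blue), the right panel MOLM-14 minus KG-1 in DMSO, and filled points are called. SPRY4 and DUSP6 lay at 1.40 and 1.36 in KG-1, and PIM1 at 1.47 in MOLM-14.

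PIM1 encodes a serine/threonine kinase induced by STAT5 that promotes survival (ENSG00000137193.13, chromosome 6, 37170203 to 37175426, plus strand). It had 68.0, 33.97 and 24.7 FPKM in MOLM-14 with ASLAN003, against 10.7, 18.9 and 11.6 FPKM with DMSO. The treated libraries spread widely and all lay above the controls, with means of 42.2 ± 22.8 and 13.7 ± 4.50 FPKM (SD, n = 3), a 3.07-fold difference. It was the member with the largest change in MOLM-14, 1.47 ± 0.33 on the log2 scale (adjusted p = 0.0125). The change was 1.07 without MOLM-14 ASLAN003 replicate 1 and still passed (adjusted p = 0.0296). It was called in 19 of 21 alternatives, and not without MOLM-14 DMSO replicate 1 (1.32, adjusted p = 0.0503) or with MOLM-14 fitted alone (adjusted p = 0.0811).

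In KG-1, PIM1 had 10.6, 5.44 and 6.89 FPKM with ASLAN003, against 3.07, 2.29 and 2.65 FPKM with DMSO. The groups did not overlap, and the difference of 1.198 ± 0.33 passed (adjusted p = 0.0139). It was not called without KG-1 ASLAN003 replicate 1 (0.96, adjusted p = 0.0676) or KG-1 DMSO replicate 2 (1.12, adjusted p = 0.0508). The order of means was MOLM-14 ASLAN003, MOLM-14 DMSO, KG-1 ASLAN003 and KG-1 DMSO, with no overlap between neighbours. In DMSO, PIM1 was 5.15-fold higher in MOLM-14 than in KG-1 (log2 difference 1.97 ± 0.33, adjusted p = 0.000310). The difference between the changes in the 2 lines was 0.27 and did not pass (adjusted p = 0.776).

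PIM2, a kinase closely related to PIM1 (ENSG00000102096.9, chromosome X, 48913182 to 48919024, minus strand), was the 1 member of 10 whose change was called as different between the lines, against 9.94% of all genes in either direction (4.89% higher and 5.05% lower). It had 28.3, 32.2 and 22.4 FPKM in MOLM-14 with ASLAN003, against 15.49, 22.02 and 15.99 FPKM with DMSO. In KG-1 it had 12.9, 10.4 and 14.5 FPKM with ASLAN003, against 17.8, 15.9 and 16.3 FPKM with DMSO. Treated libraries lay above the controls in MOLM-14 and below them in KG-1, without overlap in either line. The rise in MOLM-14 was 0.61 ± 0.17 (adjusted p = 0.0378, called in 10 of 21 alternatives), and the KG-1 difference of -0.39 ± 0.17 did not pass (adjusted p = 0.105), although it passed after median centring (-0.51, adjusted p = 0.0406), after quantile normalization (-0.52, adjusted p = 0.0347) and with KG-1 fitted alone (adjusted p = 0.0400). The change in MOLM-14 minus that in KG-1 was 0.99 ± 0.25 (adjusted p = 0.0237) and was called in 14 of 20 alternatives (adjusted p = 0.0142 to 0.0654). It was not called without KG-1 ASLAN003 replicate 1 or 2, KG-1 DMSO replicate 1 or 3, or MOLM-14 DMSO replicate 1 or 3. In DMSO the lines overlapped (17.8 ± 3.63 FPKM in MOLM-14 and 16.7 ± 1.04 FPKM in KG-1, SD, n = 3).

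SOCS2 encodes a suppressor of cytokine signalling that STAT5 induces and that restrains growth factor receptors (ENSG00000120833.13, chromosome 12, 93569814 to 93583487, plus strand). It was the most abundant member in MOLM-14, with 119, 124 and 119.6 FPKM with ASLAN003, against 123, 125 and 115 FPKM with DMSO. The libraries overlapped, and the difference was -0.0004 ± 0.089 (adjusted p = 1). In KG-1 it had 41.1, 43.1 and 40.5 FPKM with ASLAN003, against 34.4, 38.4 and 32.4 FPKM with DMSO. The treated libraries lay above the controls, and the difference of 0.24 ± 0.089 missed the threshold (adjusted p = 0.0548). It passed without KG-1 DMSO replicate 2 or MOLM-14 ASLAN003 replicate 1, and after rescaling (FPKM recomputed with mitochondrial genes, small and ribosomal RNA and histones left out). In DMSO, SOCS2 was 3.45-fold higher in MOLM-14 than in KG-1 (log2 difference 1.76 ± 0.089, adjusted p = 7.89e-09), the smallest adjusted p among the members. SOCS2-AS1 lies on the other strand of this locus, and whether counting used strand is not stated; its level was 9.39 to 10.9 FPKM in MOLM-14 ASLAN003 and 9.09 to 11.6 FPKM in MOLM-14 DMSO, against 2.22 to 2.70 FPKM in KG-1 ASLAN003 and 3.78 to 4.58 FPKM in KG-1 DMSO.

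CISH encodes a related suppressor induced by STAT5 downstream of cytokine receptors (ENSG00000114737.15, chromosome 3, 50606490 to 50611831, minus strand). It had 40.1, 39.98 and 33.4 FPKM in MOLM-14 with ASLAN003, against 23.5, 30.3 and 28.0 FPKM with DMSO. The treated libraries lay above the controls, and the difference of 0.46 ± 0.16 did not pass (adjusted p = 0.0712), although it passed without MOLM-14 ASLAN003 replicate 3 and after rescaling. In KG-1 it had 6.58, 5.87 and 5.64 FPKM with ASLAN003, against 8.69, 7.49 and 5.76 FPKM with DMSO, which overlapped (-0.23 ± 0.16, adjusted p = 0.285). The change in MOLM-14 minus that in KG-1 was 0.69 ± 0.22 (adjusted p = 0.0683), and it passed without KG-1 DMSO replicate 3. In DMSO, CISH was 3.73-fold higher in MOLM-14 than in KG-1 (log2 difference 1.77 ± 0.16, adjusted p = 1.18e-06), and every MOLM-14 library lay above every KG-1 library. Its span overlaps MAPKAPK3 on the other strand, which averaged 54.5 FPKM in MOLM-14 DMSO and 67.4 FPKM in KG-1 DMSO, the opposite order to CISH.

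RefSeq promoter entries (GRCh38.p14) were at hand for 7 of the 10 genes, with 9 transcription starts. The 250 bases before each start were searched on both strands for TTCNNNGAA (STAT), CCGGAAG (ETS), TGANTCA (AP-1) and TGACGTCA (CRE). CISH held 4 STAT matches, 241, 230, 129 and 112 bases before its start, and 1 ETS match at 113 bases that overlaps the last of them. Of 35116 promoters of the same length, 5 (0.0142%) held 4 or more STAT matches, 6.57% held at least 1, and 8.52%, 6.57% and 1.65% held at least 1 ETS, AP-1 and CRE match. The windows of DUSP6, SPRED1, SPRY2, SPRY4, PIM1 and PIM2 held no match, which says only that these letters are absent from these windows. The windows of the 3 STAT5 targets among these 7 genes follow, so that the CISH matches can be read beside PIM1 and PIM2, 5′ to 3′ on the gene's strand and with the STAT and ETS matches in capitals: CISH, chr3:50611775-50612024, minus strand; PIM1, chr6:37169902-37170151, plus strand; PIM2, chrX:48919025-48919274, minus strand. The CISH window overlaps the 5′ end of the GENCODE gene, whose start lies upstream of the RefSeq one. The windows of DUSP6, SPRY4 and SPRED1 lie wholly inside the GENCODE gene, as do those of SPRY2 at chr13:80339660-80339909 and chr13:80340109-80340358. The remaining SPRY2 window and those of PIM1 and PIM2 lie upstream of it. The windows are therefore not all alike in their place relative to the GENCODE start.
CISH: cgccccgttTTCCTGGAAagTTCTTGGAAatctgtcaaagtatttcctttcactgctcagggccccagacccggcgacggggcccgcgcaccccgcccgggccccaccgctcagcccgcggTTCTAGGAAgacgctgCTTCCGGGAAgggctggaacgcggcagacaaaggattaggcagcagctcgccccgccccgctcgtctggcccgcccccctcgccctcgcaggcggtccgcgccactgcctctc
PIM1: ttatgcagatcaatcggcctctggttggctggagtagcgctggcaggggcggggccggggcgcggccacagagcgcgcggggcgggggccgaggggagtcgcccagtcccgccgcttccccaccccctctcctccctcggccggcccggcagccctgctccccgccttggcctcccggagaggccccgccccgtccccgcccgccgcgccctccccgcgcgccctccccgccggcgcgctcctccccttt
PIM2: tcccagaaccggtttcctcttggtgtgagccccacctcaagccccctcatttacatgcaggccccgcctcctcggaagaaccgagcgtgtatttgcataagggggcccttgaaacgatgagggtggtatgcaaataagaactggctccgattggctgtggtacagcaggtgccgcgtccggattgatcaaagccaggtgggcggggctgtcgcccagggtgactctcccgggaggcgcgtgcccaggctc

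**Figure D3:**
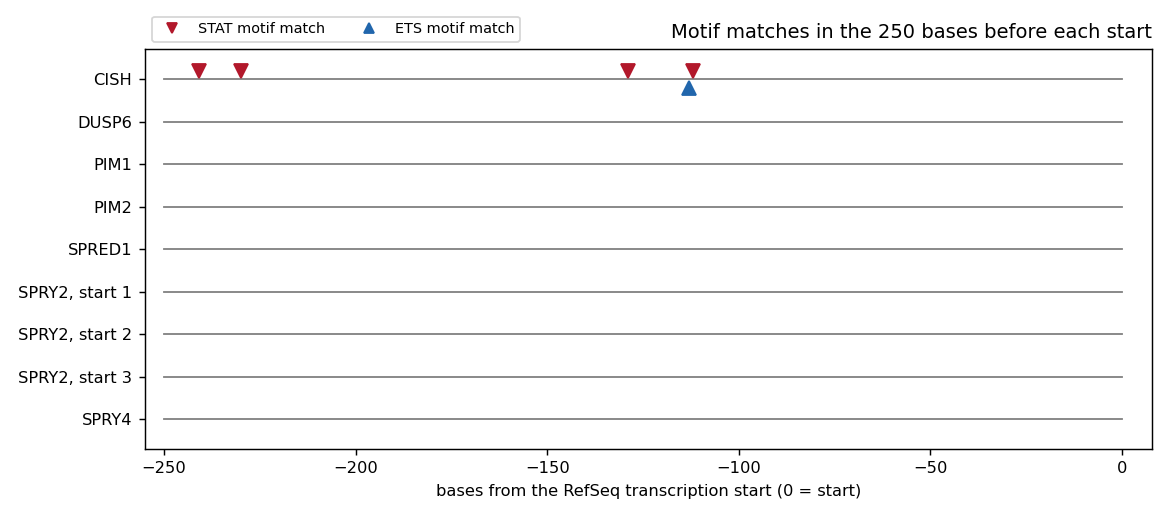
Positions of STAT (red) and ETS (blue) motif matches in the 250 bases before each RefSeq transcription start of the feedback genes, in bases from the start. CISH holds 4 STAT matches and 1 ETS match, and the other 8 windows hold none. AP-1 and CRE matches were searched for too and none was found. The windows of DUSP6, SPRY4, SPRED1 and some of those of SPRY2 lie inside the GENCODE gene.

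The 10 genes differed in which comparisons they were called in. SOCS2, CISH, DUSP5, SPRY2 and SPRED1 were called between the lines and not called after ASLAN003 in either line. DUSP6 was called after ASLAN003 in both lines and not between them in DMSO. PIM1 and DUSP4 were called in all 3 comparisons, although DUSP4 had to differ between the lines, as given above. SPRY4 was called between the lines and after ASLAN003 in KG-1, and PIM2 after ASLAN003 in MOLM-14 and in the difference between the changes. These calls were not equally stable. DUSP6 in MOLM-14 was called in 6 of 21 alternatives and PIM2 in MOLM-14 in 10 of 21. DUSP4 was called in 11 of 20 in MOLM-14 and in 7 of 20 in KG-1. Set beside all 13353 tested genes, the median change of the 10 genes after ASLAN003 was 0.51 in MOLM-14 (0.08 over all genes) and 0.33 in KG-1 (0.05 over all genes). The 2 changes and the line difference in DMSO share control libraries.

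**Figure D4:**
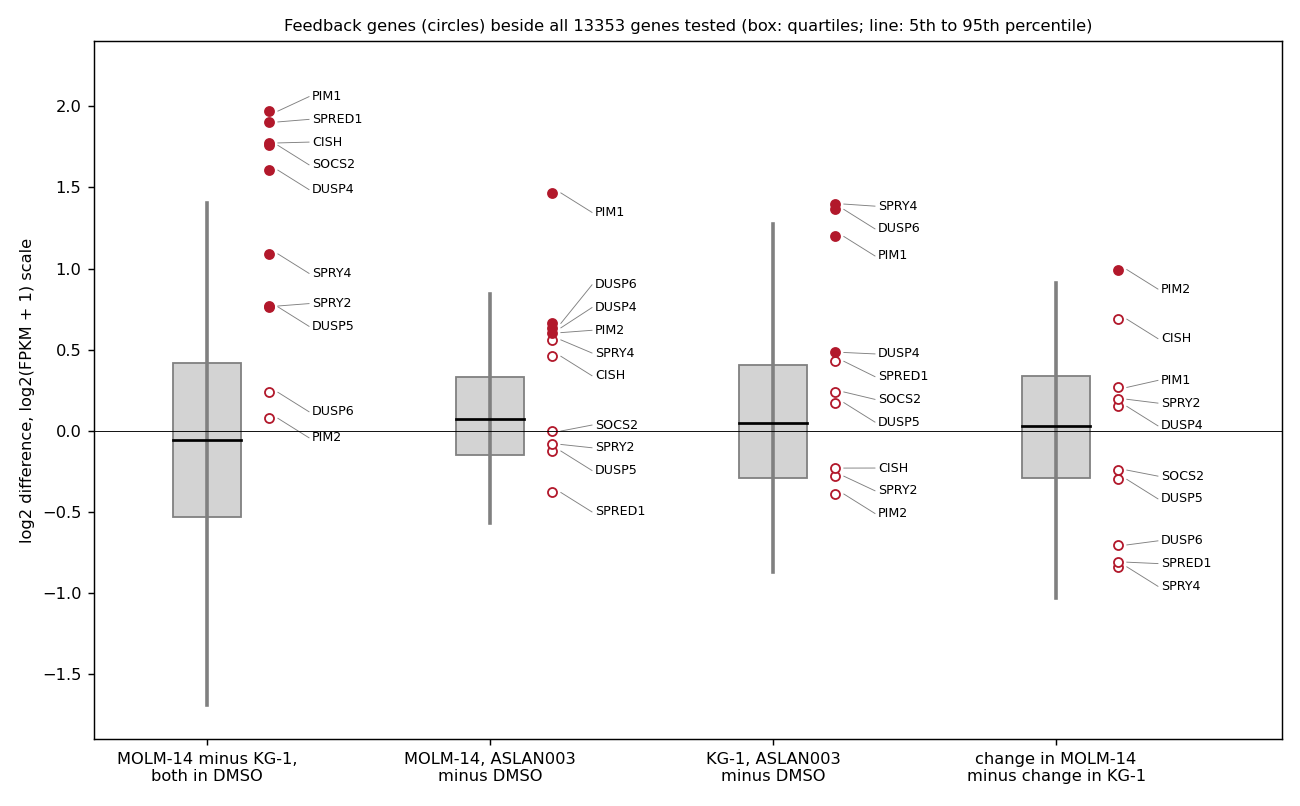
Log2 differences of the 10 feedback genes (circles, filled where called) beside the distribution over all 13353 tested genes (box, quartiles; line, 5th to 95th percentile) in 4 comparisons on the log2(FPKM + 1) scale. In DMSO, 5 members lay above the 95th percentile of the MOLM-14 minus KG-1 differences, and the 2 lowest, DUSP6 and PIM2, lay at 0.24 and 0.08. DUSP4, among the 5, passed the filter on low values only through MOLM-14 and had to differ.

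FLT3, the receptor upstream of these genes (ENSG00000122025.14, chromosome 13, 28003274 to 28100592, minus strand), had 118, 118 and 114 FPKM in MOLM-14 with ASLAN003, against 96.3, 99.8 and 108 FPKM with DMSO, and 33.9, 33.5 and 35.8 FPKM in KG-1 with ASLAN003, against 18.2, 17.5 and 19.8 FPKM with DMSO. It rose in KG-1 by 0.86 ± 0.089 on the log2 scale (adjusted p = 1.42e-05), the MOLM-14 difference of 0.21 ± 0.089 did not pass (adjusted p = 0.153), and the change in MOLM-14 minus that in KG-1 was -0.66 ± 0.13 (adjusted p = 0.00695). Of 11 tested receptor genes, 5 were called higher and 0 lower after ASLAN003 in MOLM-14 (7 and 0 at an unadjusted p under 0.05), and 7 higher and 0 lower in KG-1 (7 and 1 unadjusted). The shares over all tested genes were 9.69% higher and 3.33% lower in MOLM-14, and 19.4% and 14.3% in KG-1. At the unadjusted threshold, 3741 of all 13353 genes passed in MOLM-14 and 5804 in KG-1, in either direction. CSF2RA, the ligand-binding chain of the GM-CSF receptor, rose by 1.28 ± 0.19 in MOLM-14 (adjusted p = 0.00114) and by 1.32 ± 0.19 in KG-1 (adjusted p = 0.000161). CSF2RB, the signalling chain it shares with the IL-3 and IL-5 receptors, rose by 1.85 ± 0.18 in KG-1 (adjusted p = 9.21e-06). In DMSO, 7 receptor genes were higher and 3 lower in MOLM-14 than in KG-1, FLT3 by 2.39 ± 0.089 (adjusted p = 4.88e-10) and FGFR1, whose level in the libraries labelled KG-1 is in doubt as given above, by 3.49 ± 0.12 (adjusted p = 1.72e-10). KIT, among the 7, passed the filter only through MOLM-14 and had to differ. Over all tested genes, 22.1% were called higher and 27.1% lower between the lines in DMSO.

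Among 11 other feedback inhibitors of ERK tested, 3 rose and 3 fell in KG-1, where 19.4% of all genes were called higher and 14.3% lower: DUSP10, a phosphatase of p38 and JNK, rose by 0.98 ± 0.19 (adjusted p = 0.00178), and DUSP9, a cytoplasmic ERK phosphatase, fell by 1.60 on the log2 scale (SE 0.20, adjusted p = 7.42e-05). DUSP9 had 2.36, 1.55 and 1.03 FPKM in KG-1 with ASLAN003, against 6.48, 7.83 and 6.31 FPKM with DMSO, and was listed at 0 in all 6 MOLM-14 libraries. In MOLM-14, where 9.69% of all genes were called higher and 3.33% lower, 1 rose and 0 fell (2 and 2 at an unadjusted p under 0.05). At that unadjusted threshold, 3741 of all 13353 genes passed in MOLM-14, in either direction. PEA15, which holds ERK in the cytoplasm, had 109, 109 and 94.1 FPKM with ASLAN003, against 51.4, 54.1 and 66.6 FPKM with DMSO (0.86 ± 0.11, adjusted p = 0.000656). Between the lines in DMSO, 5 were higher and 4 lower in MOLM-14, against 22.1% and 27.1% of all genes. But DUSP1 (higher), DUSP9 and SPRY1 (both lower) passed the filter only through the line where they were higher, so they had to differ. SPRY1, another Sprouty gene, had 0.39, 0.49 and 0.92 FPKM in MOLM-14 DMSO, against 7.76, 7.81 and 7.65 FPKM in KG-1 DMSO.

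Of 10 tested ERK output genes outside the members, 6 rose and 1 fell in KG-1, and 3 rose and 0 fell in MOLM-14 (3 and 3 at an unadjusted p under 0.05), where the list's median lay below 0 (-0.24). Among all genes tested, 19.4% were called higher and 14.3% lower in KG-1, and 9.69% and 3.33% in MOLM-14. In MOLM-14, 3741 of all 13353 genes passed the unadjusted threshold, in either direction. PHLDA1, an ERK-induced gene, had 3.17, 2.4 and 3.42 FPKM in MOLM-14 with ASLAN003, against 1.04, 0.72 and 0.78 FPKM with DMSO (1.11 ± 0.18, adjusted p = 0.00224). In KG-1 it had 2.31, 1.84 and 1.96 FPKM with ASLAN003, against 0.27, 0.25 and 0.28 FPKM with DMSO (1.26 ± 0.18, adjusted p = 0.000170). PHLDA1 passed the filter on low values only with the ASLAN003 libraries, where it was higher, so it adds nothing to the counts of rises. The immediate early genes IER3 and EGR1 rose in KG-1 by 1.97 ± 0.22 (adjusted p = 3.04e-05) and 1.43 ± 0.24 (adjusted p = 0.000660). The change in MOLM-14 minus that in KG-1 was -2.24 ± 0.32 for IER3 (adjusted p = 0.00138) and -2.09 ± 0.35 for EGR1 (adjusted p = 0.00320). MYC, the transcription factor gene, fell in KG-1 by 1.31 on the log2 scale (SE 0.24, adjusted p = 0.000965), with 58.2, 48.1 and 72.9 FPKM with ASLAN003, against 162, 154 and 128 FPKM with DMSO.

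Of 10 other STAT5 output genes tested, 3 rose and 0 fell in MOLM-14 (4 and 1 at an unadjusted p under 0.05), and 6 rose and 1 fell in KG-1. These counts take no account of whether STAT5 raises or lowers each gene. Beside these counts, 9.69% of all tested genes were called higher and 3.33% lower in MOLM-14, and 19.4% and 14.3% in KG-1. At the unadjusted threshold, 3741 of all 13353 genes passed in MOLM-14 and 5804 in KG-1, in either direction. CCND3, which encodes cyclin D3, rose by 0.71 ± 0.15 in MOLM-14 (adjusted p = 0.00909) and by 1.80 ± 0.15 in KG-1 (adjusted p = 3.35e-06). SOCS1, a suppressor related to SOCS2 and CISH, had 3.25, 2.51 and 1.5 FPKM in KG-1 with ASLAN003, against 0.41, 0.10 and 0.25 FPKM with DMSO (1.42 ± 0.25, adjusted p = 0.000856). CDKN1A, the gene of the cell cycle inhibitor p21, rose by 0.79 ± 0.21 in MOLM-14 (adjusted p = 0.0285, not called without MOLM-14 ASLAN003 replicate 1 or MOLM-14 DMSO replicate 1 or 2, at 0.61, 0.63 and 0.84) and by 1.31 ± 0.21 in KG-1 (adjusted p = 0.000461), and in DMSO it was higher in MOLM-14 than in KG-1 by 3.33 ± 0.21 (adjusted p = 6.50e-08). STAT5A itself was not called after ASLAN003, with differences of 0.15 ± 0.17 in MOLM-14 (adjusted p = 0.596) and -0.38 ± 0.17 in KG-1 (adjusted p = 0.0991). Of 22 RAS and MAPK cascade genes, 4 rose and 0 fell in MOLM-14 (6 and 0 unadjusted), and 10 rose and 0 fell in KG-1 (14 and 1 unadjusted). Of 14 JAK and STAT pathway genes, 3 rose and 0 fell in MOLM-14 (5 and 0 unadjusted), and 8 rose and 0 fell in KG-1 (9 and 1 unadjusted). The shares and unadjusted counts over all genes given for the STAT5 output list apply to the cascade and pathway lists too. JAK2 rose by 0.76 ± 0.16 in MOLM-14 (adjusted p = 0.00741) and by 1.09 ± 0.16 in KG-1 (adjusted p = 0.000171).

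**Figure D5:**
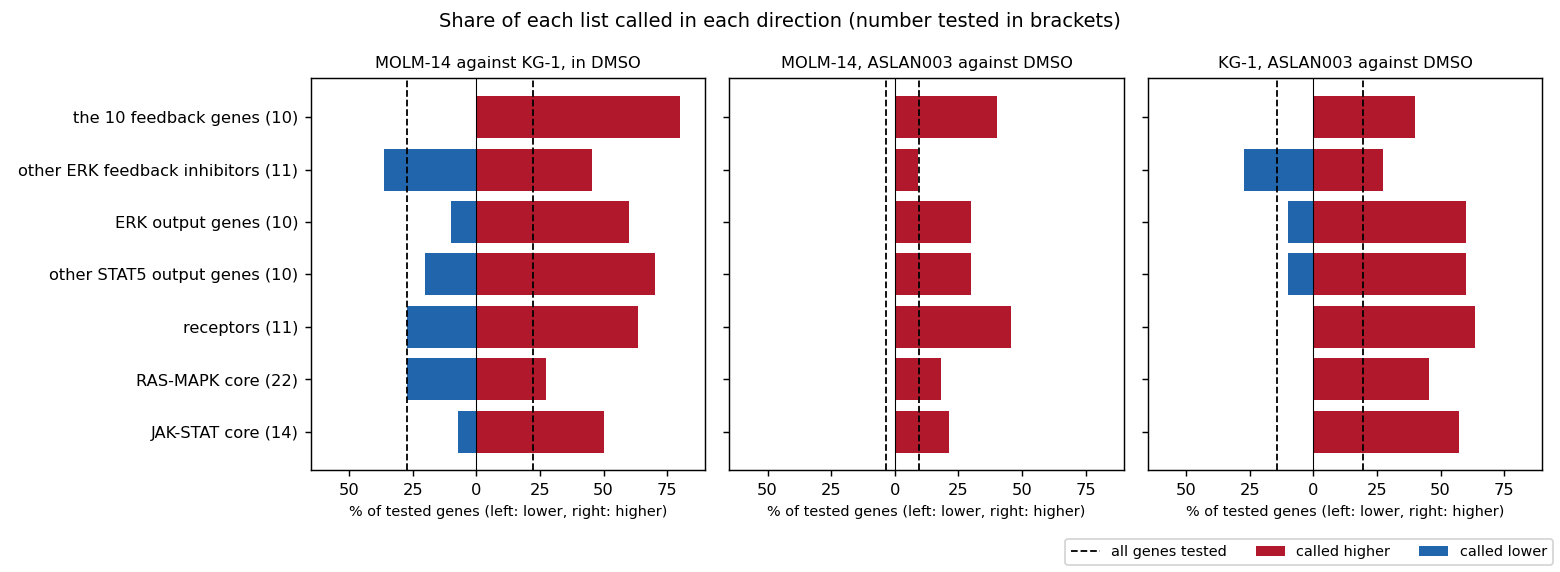
Share of the tested genes of each list called higher (right) or lower (left) in MOLM-14 against KG-1 in DMSO, and with ASLAN003 against DMSO in MOLM-14 and in KG-1; dashed lines mark all tested genes. The 10 feedback genes had no call to the left in any panel, and 8, 4 and 4 calls to the right from left to right. DUSP4, among the 8, passed the filter on low values only through MOLM-14 and had to differ.

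The genes closest in pattern to DUSP6 over the 12 libraries, by the root mean square difference of mean-centred log2(FPKM + 1) values, were NADK (0.124), TPP1 (0.161) and SHKBP1 (0.166). NADK, the NAD kinase gene, had 90.7 to 135 FPKM in MOLM-14 ASLAN003, against 63.7 to 69.3 FPKM in MOLM-14 DMSO, and 146 to 162 FPKM in KG-1 ASLAN003, against 50.7 to 60.8 FPKM in KG-1 DMSO. As for DUSP6, MOLM-14 ASLAN003 replicate 1 held its highest value in that group. The closest to CISH were SOX4 (0.156), JUND (0.178) and DPYSL2 (0.182). SOX4, a transcription factor gene, had 11.8 to 14.8 FPKM in MOLM-14 ASLAN003, against 9.99 to 11.7 FPKM in MOLM-14 DMSO, and 1.99 to 2.45 FPKM in KG-1 ASLAN003, against 2.2 to 2.3 FPKM in KG-1 DMSO.

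The scale of the whole table moved with the normalization. Of the calls in MOLM-14, 1294 were higher and 444 lower with ASLAN003, against 728 and 921 after median centring, 752 and 566 after quantile normalization and 2163 and 292 after rescaling. In KG-1, 2585 were higher and 1909 lower, against 1994 and 2671 after median centring, 2184 and 2557 after quantile normalization and 3522 and 1322 after rescaling. Between the lines in DMSO it was 2951 and 3620, against 3272 and 3312 after median centring, 3362 and 3296 after quantile normalization and 2294 and 4406 after rescaling. Median centring shifted the median of all genes by -0.15 in MOLM-14 and -0.12 in KG-1, and rescaling by 0.12 in MOLM-14, 0.13 in KG-1 and -0.13 between the lines in DMSO. Under median centring, 1 member (PIM1) was called in MOLM-14, and 3 members were called higher and 2 lower in KG-1.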

How the data were processed

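RNA-seq values of 12 libraries were analysed, 3 in each of 4 groups of cell line and treatment, grouped by the labels. Per the submitters' processing notes, the tools were RSEM 1.2.25, STAR 2.4.2a and bcl2fastq 2.17.1.14 and the build hg38/GRCh38, and the library kit was stranded per the labels. The deposited values are log2(FPKM + 1), read from the values themselves, with 13881 genes and no read counts. Because FPKM is a share of a library, a few abundant transcripts can move all other values.

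The 13353 genes that reached 1 FPKM in 3 or more libraries, with all 10 members among them, were fitted in limma 3.58.1 (R 4.3.3) with 4 group means, a pseudocount of 1, and moderation with a mean trend and robust estimation. Two-sided p-values were adjusted over all tested genes (Benjamini-Hochberg) at a threshold of 0.05. Every adjusted p and SE comes from this fit unless an alternative or a left-out library is named beside it. The same fit was run once on simulated data with known changes. A difference on the log2(FPKM + 1) scale understates that of low genes.

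Depth was estimated from steps in the low values: 77.9% to 85.1% of the 87 to 145 values used per library came to whole fragments within 0.15, against a median of 24.7% to 26.9% over the depths tried. Positions come from GENCODE and promoter sequences from RefSeq (GRCh38.p14). The members and gene lists were chosen with earlier results of these data known. All members are named. From each other list, up to 3 called genes with the largest difference per comparison may be named, and FLT3, STAT5A and MYC always, with the 3 genes closest in pattern to DUSP6 and to CISH. Alternatives were other pseudocounts, filters, scalings and variance settings, each line fitted alone, a replicate block, and leaving out each library.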

Additional observations from a re-analysis of the deposited data

Results flagged for a closer look

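The change of PIM2 after ASLAN003 differed between the lines, by 0.99 ± 0.25 on the log2(FPKM + 1) scale (MOLM-14 minus KG-1, interaction term in limma, adjusted p = 0.0237). PIM2 rose by 0.61 ± 0.17 in MOLM-14 (adjusted p = 0.0378), with 3 of 3 treated libraries above the controls, and its difference in KG-1 was -0.39 ± 0.17 (adjusted p = 0.105), with 3 of 3 treated libraries below the controls. The difference between the lines ranged from 0.87 to 1.15 over 20 alternatives, and 14 of them passed. It was not called without KG-1 ASLAN003 replicate 1 or 2, KG-1 DMSO replicate 1 or 3, or MOLM-14 DMSO replicate 1 or 3. PIM2 was the 1 member of 10 called in this comparison, against 9.94% of all tested genes in either direction, so the count was near the share over all genes.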

How the results depend on the processing

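Of the 10 members, the number called between the lines in DMSO was 7 to 8 with any 1 library left out, and 5 at a filter of 5 FPKM, where 7 members were tested. In KG-1 it was 2 to 5 with any 1 library left out and 2 at the filter of 5 FPKM. In MOLM-14 it was 0 to 6 with any 1 library left out, 1 after median centring and after quantile normalization, 0 with the line fitted alone in limma (5 at an unadjusted p under 0.05) and 2 with the replicate block. For the difference between the lines in the change it was 0 to 2 with any 1 library left out and 2 after quantile normalization. Over all genes, leaving out any 1 library gave 3316 to 5252 calls in KG-1 and 1070 to 2319 in MOLM-14. Between the lines in DMSO it gave 5561 to 7266, and for the difference in the change 745 to 2357. MOLM-14 fitted alone gave 346. At the filter of 5 FPKM, 5729 of 10868 genes were called between the lines and 4201 of 10868 in KG-1. In MOLM-14, 1649 of 13353 were called after median centring, 1318 after quantile normalization and 1598 with the replicate block. For the difference in the change, 1466 were called after quantile normalization.

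Signs turned for members that lay near 0 in the main fit and were not called there. At a pseudocount of 0.1, the DUSP4 change was 0.83 in MOLM-14 and 2.06 in KG-1. The difference between these changes was -1.23, against 0.15 at a pseudocount of 1. DUSP5 in KG-1 was -0.00047 after quantile normalization. After rescaling, SPRY2 (0.044) and SOCS2 (0.13) in MOLM-14 and PIM2 between the lines (-0.062) turned. With any 1 library left out, the range was -0.039 to 0.024 for SOCS2 in MOLM-14, -0.25 to 0.041 for DUSP5 in MOLM-14, -0.075 to 0.17 for PIM2 between the lines and -0.13 to 0.58 for PIM1 in the difference between the changes. The causes were not tested.

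Whether the replicate numbers pair the libraries was not settled. Deviations of same-numbered libraries correlated only weakly, at 0.0197 to 0.0407 in KG-1 and -0.0019 to 0.1 in MOLM-14. In each line 2 of 3 ASLAN003 libraries were closest to their own number. With the replicate block, 3 members were called in KG-1, 2 in MOLM-14, 8 between the lines and 1 for the difference in the change. Over all 13353 genes, it gave 4400, 1598, 6496 and 1125 calls in the same order. Depth was estimated, and below about 1 FPKM a value rests on few fragments, as for DUSP4 in KG-1.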
